A study of Homo sapiens with 4 samples.

Results

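The transcripts of 47 genes of central carbon metabolism were compared between cells whose RNA polymerase II (Pol II) carried a T4A or a wild-type (WT) C-terminal domain (CTD). They were taken by gene symbol, as a list of pathway genes drawn up with earlier results of these data known, from the 62700 genes in each count table. The glycolysis arm had 25 genes, covering the enzymes from hexokinase to lactate dehydrogenase, 4 glucose and lactate transporters and 3 PFKFB enzymes. The other arm had 22 genes, covering the pyruvate dehydrogenase (PDH) complex, its kinases, the tricarboxylic acid (TCA) cycle, cytosolic malate dehydrogenase and pyruvate carboxylase. All 47 were found and all 47 passed the filter on low counts.

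The cells were HEK293T, a human embryonic kidney line that carries a viral large T antigen. Both groups were transiently transfected with an EYFP-tagged construct for RPB1, the largest subunit of Pol II, bearing resistance to α-amanitin, a mushroom toxin that leads to loss of the cell's own RPB1. One construct had the WT heptad repeats and the other had threonine 4 replaced by alanine in each repeat (T4A), and after 1 day both groups received α-amanitin at 2.5 μg/ml for 48 hours. Poly(A) RNA was sequenced from 2 libraries per group, and no library of untransfected or untreated cells was among the 4. As the transfection was transient, each library may pool cells with different amounts of the construct, and in bulk RNA fewer cells expressing a gene and less RNA per cell cannot be told apart.

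Glycolysis splits glucose into pyruvate in the cytosol, and its upper part spends ATP while its lower part yields ATP and NADH. Lactate dehydrogenase turns pyruvate into lactate, whereas the PDH complex, which the PDH kinases (PDKs) switch off, feeds it as acetyl-CoA into the TCA cycle of the mitochondrion. Cultured tumor and transformed lines are known for strong glycolysis even in the presence of oxygen, and several steps of the pathway have isoenzymes whose mix differs between tissues.

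Sequencing gave 33063535 and 24695291 counts for WT and 23465029 and 19257217 for T4A. The 47 genes took between 1.82% and 1.95% of these counts, and mitochondrially encoded genes took 19.0% and 18.8% in T4A and 21.4% and 20.2% in WT, which did not overlap. POLR2A, which encodes RPB1 and whose counts join the construct and the cell's own gene, stood at 5378 and 5477 counts per 1000000 (CPM) in T4A and 3772 and 2764 CPM in WT (log2 fold change 0.73 ± 0.077 SE, adjusted p = 7.23e-07). Gene counts cannot tell T4A from WT codons. All 5 HEK293T marker genes on the list were detected, and 3 of them differed between the groups: VIM (log2 fold change 0.20, adjusted p = 0.00232), KRT8 (0.56, adjusted p = 0.00112) and NEFL (-0.17, adjusted p = 0.0299), which encode intermediate filaments. Their part in the results was not tested. Of the 7 markers of other cell types found by symbol, the leukocyte, T cell and endothelial genes PTPRC, CD3E and CDH5 had at most 4 counts in any library. COL1A1, a collagen gene, was at 27.5 to 33.1 CPM without a call.

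Changes in the 47 transcripts were small and ran both ways. In T4A, 15 of them rose (31.9%) and 12 fell (25.5%) at an adjusted p under 0.05, against 10.7% and 13% of all 18139 genes tested (23.6% in either direction). Among the 7397 genes whose mean level reached 10 CPM, which is nearer to the level of most of the 47, the shares were 22.4% higher and 24.7% lower, so the share that fell lay close to that of other expressed genes. None of the 27 called transcripts changed by 1.5-fold or more. The largest called rise was that of LDHB (1.44-fold), and the largest called falls were those of IDH3A and PFKFB2 (both to 0.707 of WT). Both T4A libraries lay above both WT libraries for 22 transcripts and below them for 19, while 6 overlapped. Across all genes tested 28.5% lay above and 30.5% below (59% in either direction). CPM are taken over scaled library sizes, so each rise or fall is relative to the other transcripts and depends on the scaling.

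**Figure D1:**
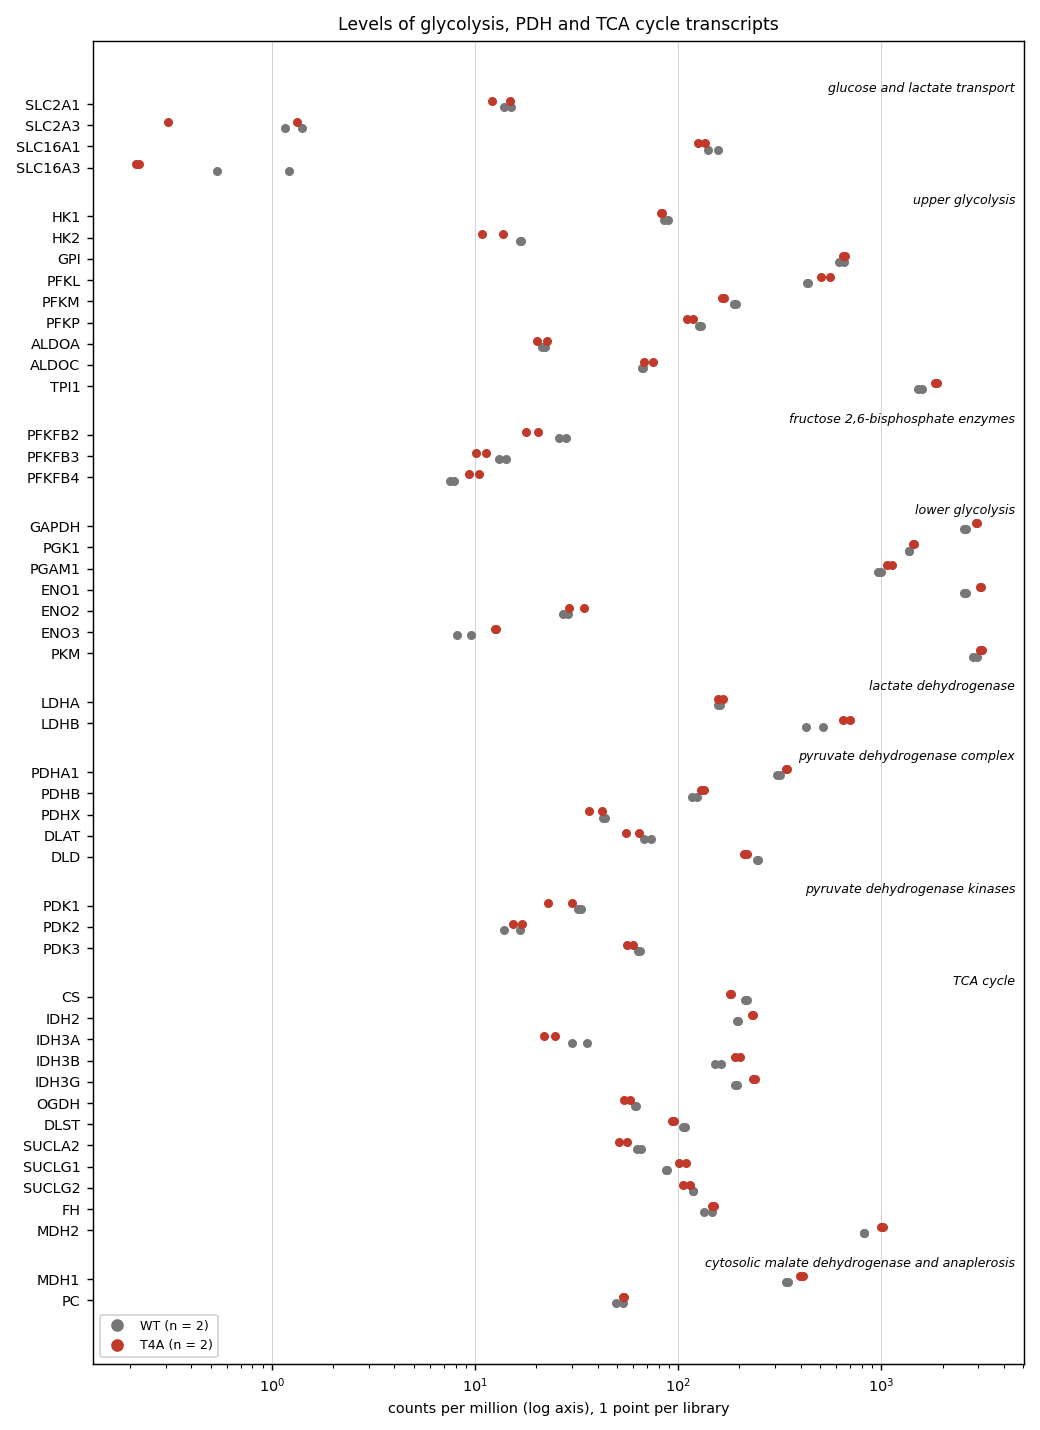
Level of each of the 47 transcripts in CPM (log axis), with 1 point per library, WT in gray and T4A in red, grouped by role. PKM, ENO1 and GAPDH lie between 2543 and 3128 CPM and SLC2A3 and SLC16A3 between 0.213 and 1.41 CPM, not scaled for length, and T4A and WT lie close together at most genes.

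The arms were alike in their counts of calls. In the glycolysis arm 8 of 25 transcripts rose, 5 fell and 12 were not called, with a median log2 fold change of 0.045. In the PDH and TCA arm 7 of 22 rose, 7 fell and 8 were not called, with a median of -0.019, and the median over all genes tested was -0.0066. The per-library median deviation from the WT mean over glycolysis genes was 0.027 and 0.065 (log2) in T4A, above -0.016 and 0.016 in WT. Over PDH and TCA genes it was -0.015 and 0.025 in T4A and 0.0058 and -0.0058 in WT, so the groups overlapped.

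How many of the 47 genes rose or fell changed with the library scaling. With upper quartile scaling 10 glycolysis genes rose and 1 fell, and 9 PDH and TCA genes rose and 2 fell. The calls lost there were those on SLC16A1, HK2, PFKM, PFKP, DLAT, DLD, PDK1, DLST and SUCLA2. With library totals alone the numbers were 5 and 6 in glycolysis and 6 and 10 in the other arm. These scalings put the median of all genes at 0.077 and -0.084 (log2), against differences of 0.10 to 0.52 for the called transcripts. The transcripts whose calls were kept under these scalings, with the other tests and filters tried and without each library in turn were PFKL, TPI1, GAPDH, ENO1, LDHB, IDH2, IDH3B, IDH3G, SUCLG1, MDH1 and MDH2 among the rises and PFKFB2 and CS among the falls.

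Summed levels were higher in T4A in both arms. The glycolysis genes summed to 16320.1 and 16090 CPM in T4A and 14408 and 14388 CPM in WT, 12.5% above WT. PDH and TCA genes summed to 3788 and 3788 CPM in T4A and 3509 and 3459 CPM in WT, 8.74% above. Abundant genes weigh most in such sums. In this arm MDH2 (means of 1010 CPM in T4A and 818 CPM in WT) and MDH1 (405 and 342 CPM) differed most in CPM. The sum over the PDH complex alone differed from WT by -0.452%. The ratio of both sums was 4.31 and 4.25 in T4A and 4.11 and 4.16 in WT, which did not overlap, with means of 4.28 ± 0.043 and 4.13 ± 0.038 (SD, n = 2). With 2 libraries against 2 an exact permutation test, two-sided, cannot go below p = 0.333, so such sums have no test that could pass. The summed CPM also depend on the scaling of the libraries. Over all 47 genes they lay 11.8% above WT. As plain shares of the counts the 47 genes took 1.945% and 1.942% in T4A and 1.818% and 1.851% in WT, a smaller rise. By level, of the 9 glycolysis genes above 400 CPM in WT, 7 rose and 0 fell (median log2 fold change 0.19), whereas of the 16 below that level 1 rose and 5 fell (median -0.13). The difference between these sets was not tested, and calls in both directions are more frequent at higher levels among all genes too. No shares of rises and falls were taken for all genes above or below 400 CPM. Whether abundant transcripts in general rose more often than they fell was thus not tested.

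**Figure D2:**
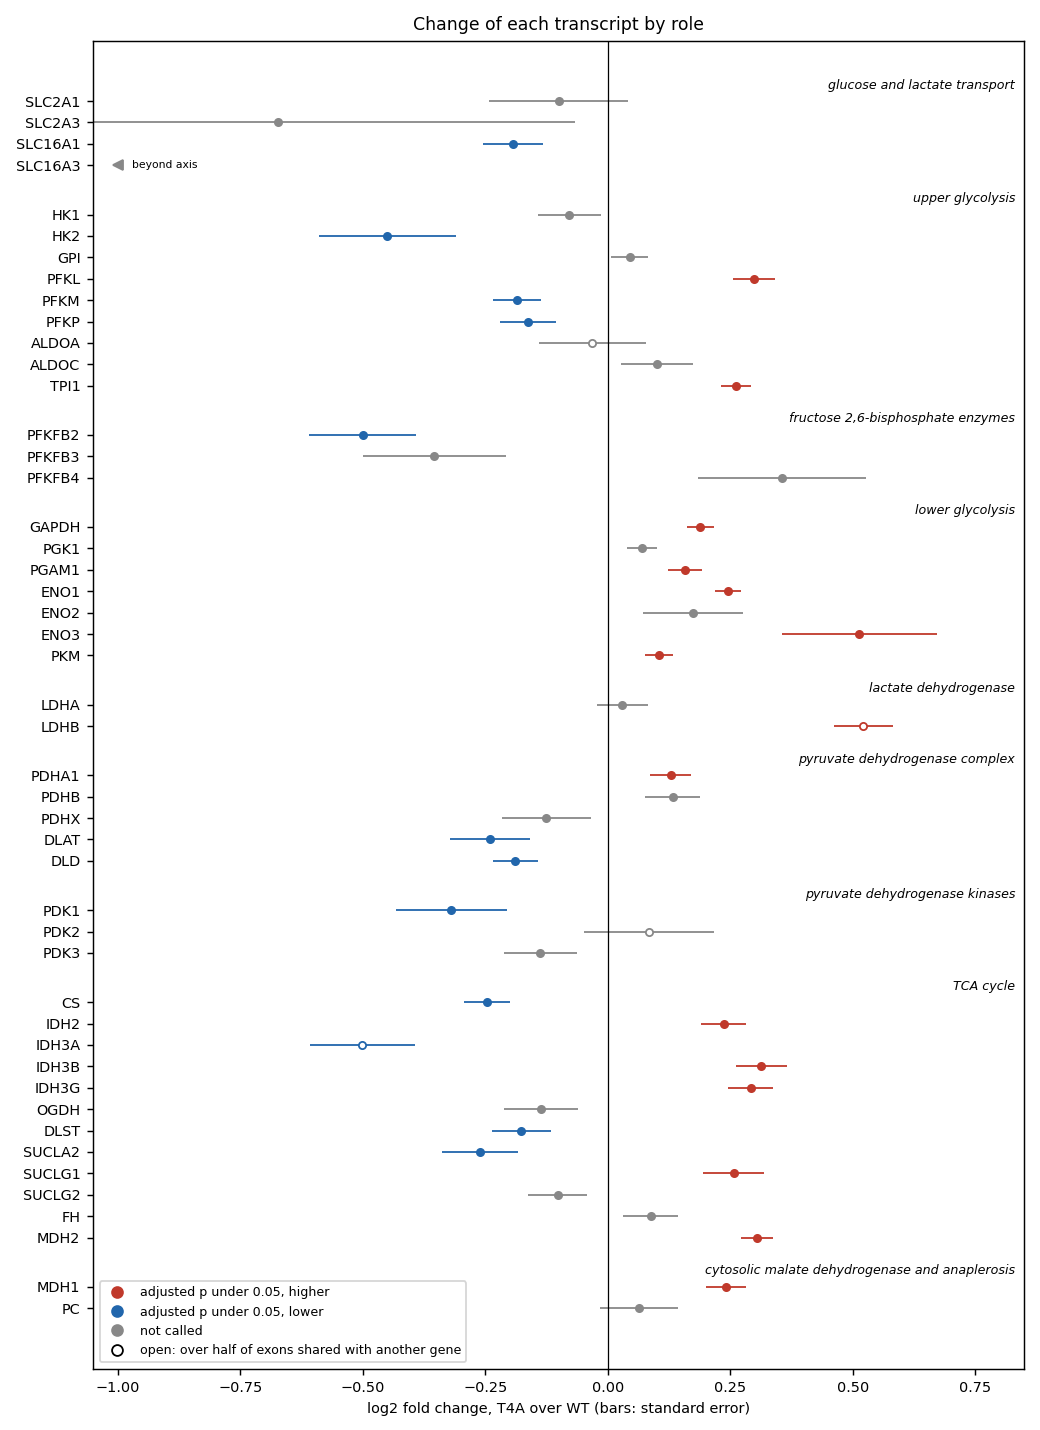
Log2 fold change of each transcript, T4A over WT, with its standard error, red where higher and blue where lower at an adjusted p under 0.05, and open where 50% or more of the exon bases also belong to another gene. Lower glycolysis lies to the right of 0 throughout (PGK1 at -0.0082 with library totals as scaling), while the PDH complex and the TCA cycle hold points on both sides, and SLC16A3 (-1.97) and part of the SLC2A3 bar lie beyond the axis.

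Lower glycolysis, from glyceraldehyde phosphate to pyruvate, was the longest stretch of the pathway with calls in 1 direction. T4A lay above WT for all 7 transcripts, except that PGK1 turned to -0.0082 with library totals as scaling, and 5 of them rose. Across all genes tested 28.5% lay above WT and 10.7% rose, and 22.4% rose among those with a mean of at least 10 CPM. ENO1 (chr1:8861000-8878686), the ubiquitous enolase, stood at 3101 and 3039 CPM in T4A and at 2561 and 2620.5 CPM in WT. Its log2 fold change was 0.24 ± 0.027 (SE), the smallest adjusted p in the arm (1.27e-06). GAPDH (chr12:6534517-6538371), which oxidizes glyceraldehyde 3-phosphate and often serves as a reference gene, was at 2965 and 2915 CPM against 2617 and 2543 CPM. The groups did not overlap, and the log2 fold change was 0.19 ± 0.027 (adjusted p = 3.22e-05). GAPDH has 65 named pseudogene copies, which together took 0.566% to 0.61% of the counts of the gene and its copies in each library, and 32.8% of its canonical exon bases also belong to a noncoding gene on the opposite strand that held 0 counts in each library.

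PGAM1 and PKM rose by less. PGAM1 (chr10:97426191-97433444), a phosphoglycerate mutase, was at 1063 and 1122 CPM in T4A and 963 and 996 CPM in WT (log2 fold change 0.16 ± 0.035, adjusted p = 0.00219). PKM (chr15:72199029-72231591), the pyruvate kinase gene whose splice forms these gene counts do not separate, was at 3128 and 3063 CPM against 2942 and 2815 CPM (0.10 ± 0.028, adjusted p = 0.00958). The PKM call was lost without T4A replicate 1 (0.088) or without WT replicate 2 (0.069). ENO3, the muscle enolase, was scarce at 12.6 and 12.6 CPM in T4A and 8.14 and 9.53 CPM in WT. Its log2 fold change of 0.51 ± 0.16 (adjusted p = 0.0217) was the second largest rise among the 47, and its call was lost without WT replicate 1 (0.41). With scaling by library totals the calls on PGAM1 (0.08), PKM (0.027) and ENO3 (0.43) were lost.

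The remaining lower glycolysis transcripts lay higher in T4A without passing the test. PGK1, phosphoglycerate kinase, was at 1426 and 1449 CPM in T4A and 1368 and 1371 CPM in WT (0.07 ± 0.030, adjusted p = 0.105). ENO2, the neuronal enolase, was at 28.8 and 34.1 CPM against 28.7 and 27.0 CPM (0.17 ± 0.10, adjusted p = 0.255). Per kilobase of exons, ENO1 made up 98.2% to 98.4% of enolase in the 4 libraries, with the groups overlapping. The ENO3 share was 0.484% and 0.495% in T4A and 0.38% and 0.434% in WT.

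Upper glycolysis did not move one way: of 9 transcripts 2 rose, 3 fell and 4 were not called (median log2 fold change -0.03). TPI1 (chr12:6867420-6870948), triose phosphate isomerase, had the highest level per kilobase of them and was at 1869 and 1836 CPM in T4A and 1578 and 1513 CPM in WT. It rose by 0.26 ± 0.031 (log2, adjusted p = 2.63e-06), and its 4 named pseudogenes took 1.32% to 1.6% of the joint counts.

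Phosphofructokinase, which commits the sugar to glycolysis, showed opposite changes among its 3 subunit genes. PFKL (chr21:44300053-44327373), the liver type, stood at 556 and 506 CPM in T4A and 427 and 437 CPM in WT (0.30 ± 0.043, adjusted p = 3.07e-05). PFKM (chr12:48105353-48146404), the muscle type, was lower at 169 and 164 CPM against 187 and 191 CPM (-0.19 ± 0.049, adjusted p = 0.00828). PFKP (chr10:3067548-3136805), the platelet type, was lower too, at 110 and 118 CPM against 129 and 126 CPM (-0.16 ± 0.057, adjusted p = 0.0451). The groups did not overlap in any of the 3. Per kilobase of exons, PFKL made up 53.1% and 53.5% of phosphofructokinase transcripts in WT and 62.5% and 60.02% in T4A, whereas PFKM made up 28.6% and 28.8% in WT and 23.3% and 23.9% in T4A. The call on PFKM was lost without WT replicate 2 (-0.18), and that on PFKP without T4A replicate 1 (-0.12), WT replicate 1 (-0.14) or WT replicate 2 (-0.18). The PFKL call was kept without each library in turn, at 0.23 to 0.36.

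Hexokinase, which phosphorylates glucose on entry, differed in its minor form. HK2 (chr2:74834127-74893359), the isoenzyme induced in many tumors, was at 10.8 and 13.8 CPM in T4A and 16.9 and 16.6 CPM in WT (-0.45 ± 0.14, adjusted p = 0.0243). Both T4A libraries lay below both WT libraries, yet the call was lost without T4A replicate 1 (-0.28), WT replicate 1 (-0.43) or WT replicate 2 (-0.47). HK1, the major form, was at 82.2 and 82.6 CPM against 89.1 and 84.8 CPM (-0.08 ± 0.064, adjusted p = 0.442). HK1 made up 86.8% and 83.8% of hexokinase per kilobase in T4A and 82.0% and 81.5% in WT.

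Neither GPI, glucose 6-phosphate isomerase, nor the aldolases, which cleave fructose 1,6-bisphosphate, passed the test. GPI was at 663 and 647 CPM in T4A and 617 and 653 CPM in WT, with overlapping groups. ALDOC, the brain aldolase, was at 68.0 and 75.2 CPM in T4A and 66.4 and 67.1 CPM in WT (0.10 ± 0.073, adjusted p = 0.374). ALDOA, the aldolase of most tissues, was counted at only 20.05 to 22.5 CPM in all 4 libraries, but 89.8% of its canonical exon bases also belong to another annotated gene on the same strand. The sources used here do not state the counting of fragments that fit both genes, and the other gene held only 32 to 44 counts. The ALDOA value may thus rest on the 168 bases that it has for itself, and the aldolase share cannot be read as that of whole transcripts.

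**Figure D3:**
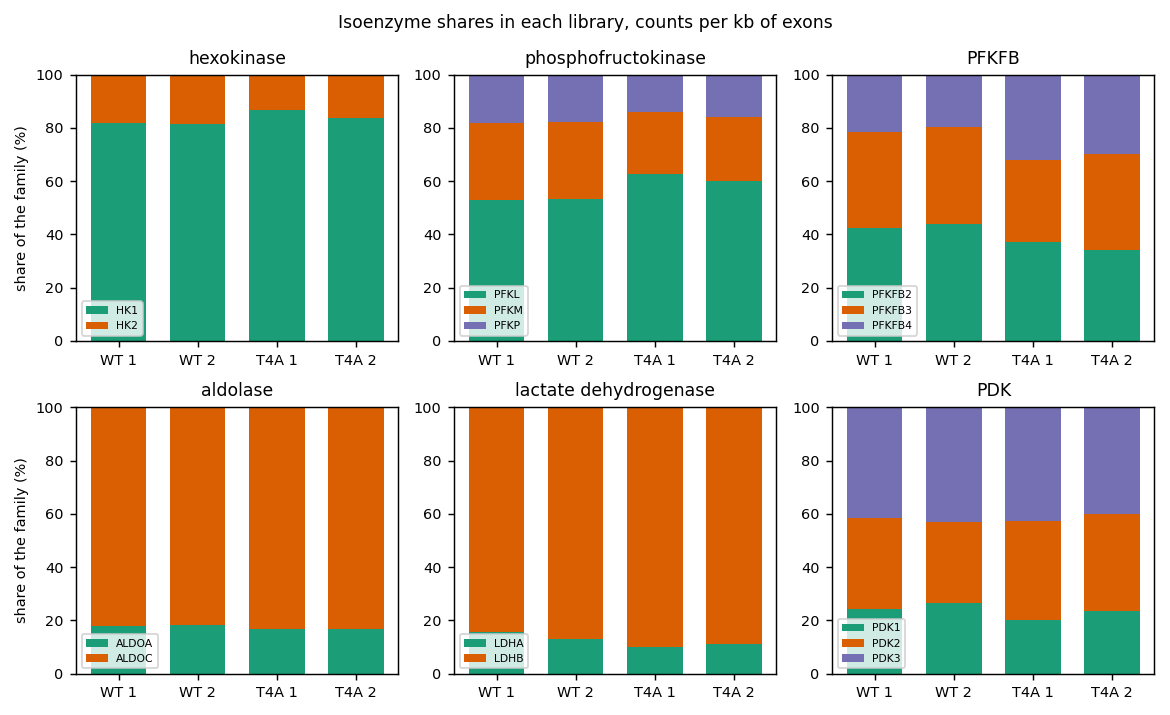
Share of each isoenzyme in its family, in % of counts per kilobase of exons, with 1 stacked bar per library. The PFKL share is larger in T4A (62.5% and 60.02%) than in WT (53.1% and 53.5%) and the PFKFB4 share is larger as well (31.9% and 29.8% against 21.6% and 19.6%), while the families of hexokinase, aldolase, lactate dehydrogenase and PDK differ less.

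The PFKFB enzymes make and degrade fructose 2,6-bisphosphate, the strongest activator of phosphofructokinase, and 1 of 3 fell. PFKFB2 (chr1:207034416-207081027), the heart type, was at 20.3 and 17.8 CPM in T4A and 25.9 and 28.1 CPM in WT (-0.50 ± 0.11, adjusted p = 0.00187), and its call was kept without each library in turn. PFKFB3, the inducible type, was at 10.1 and 11.3 CPM against 13.1 and 14.1 CPM (-0.35 ± 0.15, adjusted p = 0.0897). It passed only without T4A replicate 2 (-0.43, adjusted p = 0.048) or with scaling by library totals (-0.43, adjusted p = 0.041). PFKFB4, the testis type, lay the other way at 10.4 and 9.30 CPM against 7.90 and 7.53 CPM (0.36 ± 0.17, adjusted p = 0.153). Within the family the PFKFB2 share was 37.3% and 34.1% per kilobase in T4A and 42.5% and 43.8% in WT.

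Among the transporters, SLC16A1 was the single call. SLC16A1 (chr1:112911847-112956196), the lactate and pyruvate carrier MCT1, was at 135 and 125 CPM in T4A and 141 and 157 CPM in WT (-0.19 ± 0.061, adjusted p = 0.0267), and the call was lost without T4A replicate 2 (-0.14) or WT replicate 2 (-0.11). SLC2A1, the glucose carrier GLUT1, was at 12.1 and 14.8 CPM in T4A and 13.8 and 15.0 CPM in WT, with overlapping groups (-0.10 ± 0.14, adjusted p = 0.69). The carriers SLC2A3 (GLUT3) and SLC16A3 (MCT4) were near the floor. SLC2A3 was at 0.308 and 1.33 CPM in T4A and 1.16 and 1.41 CPM in WT, and a difference was called without T4A replicate 2 (-2.04) but was 0.053 without T4A replicate 1. SLC16A3 was at 0.22 and 0.213 CPM against 0.537 and 1.21 CPM (-1.97 ± 0.79, adjusted p = 0.0809).

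Lactate dehydrogenase showed the largest called change, in its B subunit. LDHB (chr12:21635342-21657842), the heart-type subunit, was at 701 and 644 CPM in T4A and 425 and 513 CPM in WT (0.52 ± 0.060, adjusted p = 2.08e-06). Both T4A libraries lay above both WT libraries, and the call was kept without each library in turn (0.40 to 0.66). However, 76.5% of its canonical exon bases also belong to another annotated gene on the same strand, which held 0 to 4 counts, so the LDHB count may rest on the remaining 306 bases, 85.6% of which lie in the 3′ part of the transcript. LDHA (chr11:18394563-18408425), the muscle-type subunit known for lactate production in tumors, was at 158 and 165 CPM against 160 and 156 CPM, with overlapping groups (0.03 ± 0.052, adjusted p = 0.753). The LDHB share was 90.0% and 88.7% per kilobase in T4A and 84.3% and 86.9% in WT, with the same limit.

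In the PDH complex the subunit genes moved in opposite directions: 1 rose, 2 fell and 2 were not called, and their summed level was 774 and 798 CPM in T4A and 799.6 and 779.6 CPM in WT. PDHA1 (chrX:19343927-19361718), the catalytic E1 α subunit that PDKs phosphorylate, was at 343 and 338 CPM in T4A and 318 and 306 CPM in WT (0.13 ± 0.042, adjusted p = 0.0298). Its call was lost without T4A replicate 1 (0.12), T4A replicate 2 (0.14) or WT replicate 2 (0.097), and 28.5% of its exon bases are shared with MAP3K15. PDHB, the E1 β subunit, was at 129 and 134 CPM against 123 and 117 CPM (0.13 ± 0.056, adjusted p = 0.0989).

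The E2 and E3 genes of the same complex were lower. DLAT (chr11:112025408-112064404), the E2 acetyltransferase, was at 55.3 and 64.2 CPM in T4A and 73.4 and 67.5 CPM in WT (-0.24 ± 0.081, adjusted p = 0.0367). The call on DLAT was lost without T4A replicate 1 (-0.14) or WT replicate 1 (-0.17), and 25.9% of its exon bases are shared with PIH1D2. DLD (chr7:107891107-107921198), the E3 subunit that is also part of 2-oxoglutarate dehydrogenase, was at 210.4 and 219 CPM against 243 and 246 CPM (-0.19 ± 0.045, adjusted p = 0.00417), and its call was kept without each library in turn but lost with upper quartile scaling (-0.10, adjusted p = 0.109). PDHX, which binds E3 to the core, was at 36.5 and 42.3 CPM against 42.5 and 43.3 CPM (-0.13 ± 0.090, adjusted p = 0.37).

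Of the PDH kinases, PDK1 fell and the others were not called. PDK1 (chr2:172555373-172724312) was at 22.7 and 29.8 CPM in T4A and 32.2 and 33.1 CPM in WT (-0.32 ± 0.11, adjusted p = 0.0459). T4A replicate 1 was the lowest of the 4 libraries, and the call was lost without it (-0.13), without WT replicate 1 (-0.33) or without WT replicate 2 (-0.30). PDK3, at 55.8 and 60.1 CPM against 64.4 and 63.0 CPM, gave -0.14 ± 0.075 (adjusted p = 0.211). PDK2, 62.8% of whose exon bases are shared with SAMD14 on the opposite strand, was at 15.3 and 17.1 CPM against 16.5 and 13.9 CPM.

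The TCA cycle itself had 12 genes, of which 5 rose, 4 fell and 3 were not called (median log2 fold change -0.0074), and T4A lay above WT for 6 and below for 6. MDH2 (chr7:76048106-76067508), mitochondrial malate dehydrogenase with the highest level per kilobase of the 12, was at 1023 and 997 CPM in T4A and 817 and 819 CPM in WT (0.30 ± 0.033, adjusted p = 1e-06). CS (chr12:56271699-56300330), citrate synthase, which opens the cycle, lay the other way at 181 and 180.4 CPM against 212 and 217 CPM (-0.25 ± 0.047, adjusted p = 0.000552). Both calls were kept without each library in turn.

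Isocitrate dehydrogenase 3, the NAD-dependent enzyme of α, β and γ subunits, showed the widest split. IDH3A (chr15:78149362-78171945), the catalytic α subunit, was at 21.9 and 24.6 CPM in T4A and 35.7 and 29.9 CPM in WT (-0.50 ± 0.11, adjusted p = 0.00173). IDH3B (chr20:2658395-2664216), the β subunit, was at 201 and 190.3 CPM against 163 and 152 CPM (0.31 ± 0.053, adjusted p = 0.000153). IDH3G (chrX:153785768-153794375), the γ subunit, was at 239 and 234 CPM against 195 and 190.4 CPM (0.29 ± 0.046, adjusted p = 7.92e-05). No group overlapped in the 3 genes, and the calls on IDH3B and IDH3G were kept without each library in turn, but the IDH3A call was lost without WT replicate 1 (-0.36). Of the canonical exon bases of IDH3A, 63.9% are shared with ACSBG1 on the opposite strand, and the strand setting of the counting is not stated. If fragments that fit both genes were left out, its level and its change rest on the remaining 1475 bases. ACSBG1 itself held 5 to 16 counts. IDH2 (chr15:90083045-90102468), the separate NADP-dependent mitochondrial enzyme, was at 229 and 232 CPM in T4A and 196 and 195 CPM in WT (0.24 ± 0.046, adjusted p = 0.000643).

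**Figure D4:**
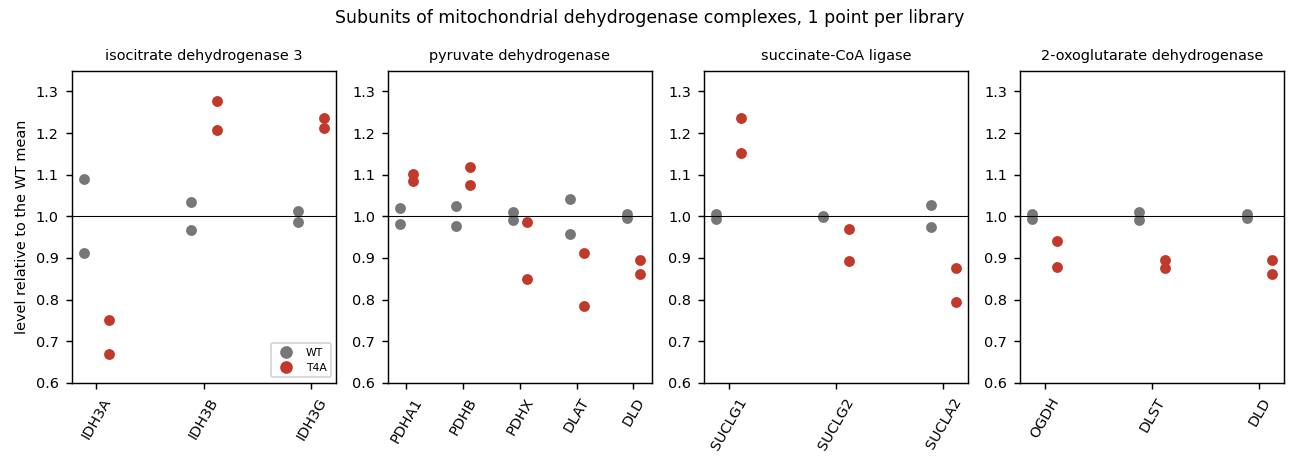
Level of each subunit gene in each library relative to the WT mean of that gene, for isocitrate dehydrogenase 3, the PDH complex, succinate-CoA ligase and 2-oxoglutarate dehydrogenase, with WT in gray and T4A in red. In the first 3 complexes some T4A points lie above 1 (IDH3B, IDH3G, PDHA1, SUCLG1) and others below (IDH3A, DLAT, DLD, SUCLA2), whereas OGDH, DLST and DLD all lie below.

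Succinate-CoA ligase, which makes ATP or GTP in the cycle, was split as well. SUCLG1 (chr2:84423528-84459280), the shared α subunit, was at 109 and 101 CPM in T4A and 87.4 and 88.3 CPM in WT (0.26 ± 0.062, adjusted p = 0.00439), and its call was kept without each library in turn. SUCLA2 (chr13:47942656-48001273), the ATP-forming β subunit, was at 50.9 and 56.1 CPM against 62.4 and 65.8 CPM (-0.26 ± 0.078, adjusted p = 0.019), and its call was lost without T4A replicate 1 (-0.19) or WT replicate 2 (-0.23). SUCLG2, the GTP-forming β subunit, was at 114 and 105 CPM against 118 and 118 CPM (-0.10 ± 0.059, adjusted p = 0.245).

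In the 2-oxoglutarate dehydrogenase complex, DLST (chr14:74881916-74903743), the E2 subunit, was at 93.1 and 95.2 CPM in T4A and 105 and 107 CPM in WT (-0.18 ± 0.059, adjusted p = 0.0367). The call on DLST was lost without any 1 of the 4 libraries, at -0.19 to -0.16. OGDH, its E1 subunit, was at 57.7 and 53.9 CPM against 61.7 and 61.0 CPM (-0.14 ± 0.075, adjusted p = 0.22). FH, fumarase, was at 150.1 and 147 CPM against 146 and 134 CPM (0.09 ± 0.056, adjusted p = 0.298). Of both genes beside the cycle, MDH1 (chr2:63588963-63607197), cytosolic malate dehydrogenase, rose from 346 and 338 CPM in WT to 397 and 413 CPM in T4A (0.24 ± 0.041, adjusted p = 0.000156). PC, pyruvate carboxylase, which refills the cycle, was at 53.5 and 54.0 CPM against 49.5 and 53.4 CPM (0.06 ± 0.079, adjusted p = 0.64).

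Genes that rose had, by the median, shorter canonical transcripts than genes that fell. The canonical transcripts of the 15 genes that rose had a median length of 1542 bases, those of the 12 that fell 3645 bases, and those of the 20 not called 2981.5 bases. Spearman's rho between canonical length and log2 fold change was -0.64 across the 47 genes, -0.65 in the glycolysis arm (n = 25) and -0.64 in the PDH and TCA arm (n = 22). It was -0.42 across all 17876 tested genes with a canonical length, and all these genes share the same 4 libraries. With the union of exons as length rho was -0.57 across the 47 and -0.35 across all genes. The pairs that moved apart within a complex followed the same order: IDH3B (1542 bases), IDH3G (1335) and SUCLG1 (1270) were shorter than IDH3A (4083) and SUCLA2 (2111). PFKL, at 2907 bases, rose while PFKP, at 2626, fell.

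What remained once the length trend of all genes was taken off depended on which length was used. With the union of annotated exons the remaining log2 difference was 0.27 for MDH1, 0.23 for SUCLG1 and 0.29 for ENO1, and with the canonical transcript, a length chosen after the data were seen, it was 0.02, 0.04 and 0.09. In the other direction SUCLA2 was at -0.06 with the union of exons and -0.37 with the canonical transcript, and CS at -0.14 and -0.25. PKM was at 0.30 with the union of exons and 0.02 with the canonical transcript. GAPDH (0.02 and -0.03) and PGAM1 (0.0038 and 0.0050) were near 0 with both. PFKL (0.50 and 0.29), LDHB (0.41 and 0.31), ENO3 (0.50 and 0.32) and MDH2 (0.24 and 0.20) kept their direction with a larger remainder under both. The falls of IDH3A (-0.37 and -0.37), HK2 (-0.37 and -0.21) and PFKFB2 (-0.27 and -0.18) did so too. The arm medians were 0.023 for glycolysis and 0.12 for PDH and TCA genes with the union of exons, and -0.030 and -0.029 with the canonical transcript. What part length plays in these differences was not tested.

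**Figure D5:**
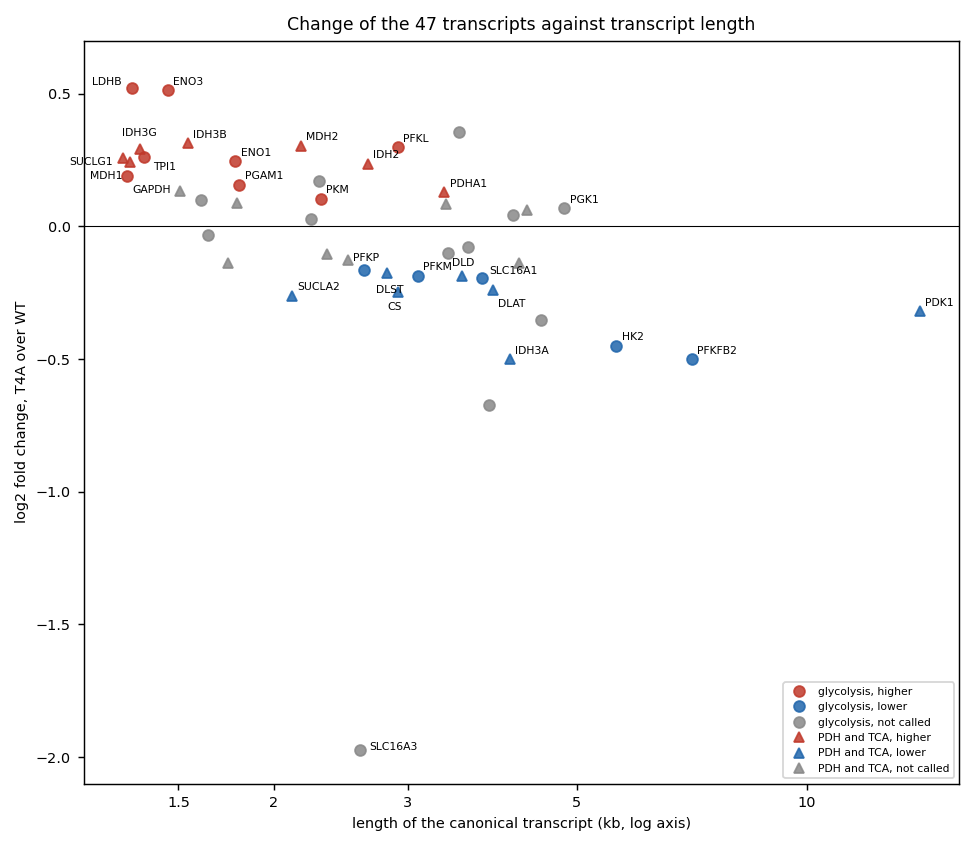
Log2 fold change of each of the 47 transcripts, T4A over WT, against the length of its canonical transcript (log axis), with glycolysis as circles, PDH and TCA genes as triangles, and calls in red (higher) and blue (lower). The longest transcript that rose has 3349 bases (PDHA1) and the shortest that fell has 2111 (SUCLA2), with rho = -0.64 over the 47.

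Among genes next to these pathways there were calls in both directions. Of 18 further pyruvate and TCA genes tested, 4 rose (22.2%) and 7 fell (38.9%), against 10.7% and 13% of all genes tested. Most of these genes reached a mean of 10 CPM, where the shares were 22.4% and 24.7%. The share that rose thus lay close to that of other expressed genes. SLC25A1, the mitochondrial citrate carrier, rose from 142 and 156 CPM to 189 and 189 CPM (0.34 ± 0.054, adjusted p = 8.25e-05). The falls included ACLY, which cleaves citrate in the cytosol (-0.46 ± 0.039), and PDPR, a regulatory subunit of PDH phosphatase (-0.94 ± 0.11). In the pentose phosphate pathway, which branches off at glucose 6-phosphate, 3 of 7 genes rose (42.9%, against 22.4% at that level) and 0 fell. The rises included TALDO1 (0.38 ± 0.042) and PGLS (0.53 ± 0.10). Of the other isoenzymes of the 47 genes' families, 9 of 21 were tested and 0 rose. TIGAR (-0.50 ± 0.14) and SLC16A7 (-0.67 ± 0.23) fell (22.2%, against 13% of all genes).

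Calls among regulators and targets of the response to low oxygen went both ways, and those among metabolic regulators were all falls. The response to low oxygen induces glycolysis through HIF1. Of 19 tested genes listed for it, regulators and targets together, 2 rose (10.5%) and 5 fell (26.3%). The shares were 10.7% and 13% of all genes, and 22.4% and 24.7% of those with a mean of at least 10 CPM. The falls were those of the regulators HIF1A, EPAS1, ARNT and HIF1AN and of the target NDRG1, and the rises those of ADM and DDIT4. ADM, a vasodilator peptide gene, was at 7.93 and 6.17 CPM in T4A and 3.52 and 3.47 CPM in WT (1.01 ± 0.23, adjusted p = 0.00268). HIF1A, the oxygen-regulated subunit of HIF1, was at 40.8 and 40.0 CPM against 51.8 and 54.6 CPM (-0.40 ± 0.081, adjusted p = 0.00116). Of 12 metabolic regulators 0 rose and 3 fell (25%, against 13% of all genes and 24.7% of those reaching 10 CPM). Among the falls was GABPA, a factor for nuclear genes of mitochondrial proteins (-0.53 ± 0.11).

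The promoters were searched for the core letters of the HIF1 binding motif, since glycolysis genes are textbook HIF1 targets. RefSeq promoter sequences (GRCh38.p14) were found for 43 of the 47 genes and not for OGDH, SLC16A1, SLC2A3 and PFKFB2. In the 250 bases before the most upstream start listed, ACGTG or GCGTG stood on either strand in 25 of 43 promoters (58.1%), against 43.1% of all 27305 promoters of the table. The share was 59.1% in the glycolysis arm and 57.1% in the PDH and TCA arm. It was 60% of the 15 promoters of genes that rose, 40% of 10 of genes that fell and 66.7% of 18 of genes not called. CACGTG, which contains ACGTG on both strands, was found in 4 of 43 (9.3%, against 6.46%), and AAGGTCA, a nuclear receptor motif, in 2 of 43 (4.65%, against 3.5%). A match is a run of letters and not a shown binding site.

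Windows of 30 bases are given for 3 genes of each arm, to show the motif letters, in capitals, in both arms. They are the called genes with the smallest p that hold a searched motif, and all of them rose. LDHB, TPI1, MDH2, MDH1 and CS had a smaller p than a gene shown in their arm but held no searched motif. The windows thus do not show how common the motif is. Each reads 5′ to 3′ on the strand of the gene, and the IDH2 window holds the motif on the opposite strand. In the GAPDH window the base before the capitals completes CACGTG, of which only ACGTG is marked. The windows lie at chr1:8878741-8878770 (minus strand) for ENO1, chr21:44299877-44299906 (plus) for PFKL, chr12:6535172-6535201 (plus) for GAPDH, chrX:153794418-153794447 (minus) for IDH3G, chr20:2664297-2664326 (minus) for IDH3B and chr15:90100622-90100651 (minus) for IDH2. The start used lay 747 bases inside the RefSeq gene for GAPDH and 1847 bases inside it for IDH2, so both windows lie within longer transcript models.
ENO1: ggagctgaggggGCGTGccccggaggcggg
PFKL: tgctcagggcccGCGTGacattgcacaggt
GAPDH: ctctgcggggtcACGTGtcgcagaggagcc
IDH3G: gtgcgaccgcgcGCGTGcgcagtaccgggt
IDH3B: aaggagaaacagGCGTGagcaagcagtgct
IDH2: gcctggtaattcctgCACGCatcttttcct
The motif began 72 bases before the start for ENO1, 164 for PFKL, 80 for GAPDH, 60 for IDH3G, 98 for IDH3B and 15 for IDH2.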

How the data were processed

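Poly(A) RNA of HEK293T cells was sequenced as read pairs, in 2 libraries per group. Per the submitters' processing notes, Trimmomatic 0.38, HISAT2 2.2.1 and featureCounts 2.0.1 were used with genome build hg38, and the study's methods state alignment without strand. The authors deposited raw counts, fragments assigned to each gene, without normalization or pooling. Gene names, lengths and overlaps were taken from GENCODE release 44 lifted to another build, which named 60877 of 62700 identifiers, and printed coordinates are those of RefSeq genes on GRCh38.p14.

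From the counts, 18139 genes were kept with filterByExpr and T4A was compared with WT by edgeR 4.0.16 (R 4.3.3), with TMM scaling and the quasi-likelihood functions glmQLFit and glmQLFTest. P-values were adjusted over all these genes (Benjamini-Hochberg), and calls were made at an adjusted p under 0.05. Standard errors (SE) are the log2 fold change over the square root of its F statistic. CPM use TMM-scaled library sizes. Isoenzyme shares use counts per kilobase of the union of exons. The length trend was a lowess curve (fraction 0.3) over all genes tested. The fit was tested on simulated data, and alternatives used DESeq2 1.42.0 and limma 3.58.1.

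The members and lists were chosen with earlier results of these data known. Text names all 47 genes, POLR2A, marker genes and up to 4 called genes with the smallest p of each further list, of which a few are not reported here. Separate cultures are not stated in the labels, and the p-values thus reflect only how much these libraries vary, perhaps technically. Replicates differed by more than sampling noise (chi-square per degree of freedom 4.56 in T4A and 5.66 in WT).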

Additional observations from a re-analysis of the deposited data

How the results depend on the processing

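Of the alternatives, several moved the counts of calls or the median changes. With DESeq2's size factors 4 PDH and TCA genes fell, and with the DESeq2 test 2 glycolysis genes and 4 PDH and TCA genes fell. Upper quartile scaling gave 1 and 2 falls, with medians of 0.13 and 0.064 in the glycolysis and the PDH and TCA arm. Library totals alone gave 5 glycolysis rises and medians of -0.034, reversed, and -0.097. With no filter the medians were 0.018 and -0.046. Without each library in turn 1 to 6 glycolysis genes and 3 to 6 PDH and TCA genes fell, and the PDH and TCA median ran from -0.072 to 0.023. With pathway enzymes only, without transporters, PFKFB enzymes, PDKs, MDH1 and PC, 3 glycolysis genes fell. The medians were then 0.10 and -0.10, over 18 and 17 genes. Removing a trend over the union of exons gave a PDH and TCA median of 0.12, and removing one over canonical length, chosen after seeing the data, turned the glycolysis median to -0.030. Leaving out genes that share 50% or more of their exon bases with another gene, also chosen after seeing the data, moved each count of calls by at most 1.

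Among isoenzyme shares, scaling by canonical transcripts, chosen after seeing the data, gave differences of -1.64 percentage points for ALDOA, 0.584 for SLC16A1 and -0.697 for PDK1, against -1.32, 0.28 and -3.65 with the union of exons. Counts without length gave -1.66 for ALDOA and -5.96 for LDHA.

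Taking off the length trend turned the called genes GAPDH (-0.030) and PDK1 (0.155) with canonical length, and PFKP (0.0021) with the union of exons. Under the other tests, scalings and filters, and without each library in turn, no called gene changed direction. Genes without a call did so with library totals alone (GPI -0.034, PGK1 -0.0082, LDHA -0.048, PC -0.014), upper quartile scaling (HK1 0.00496, ALDOA 0.052) and where a library was left out. Without each library in turn SLC2A1 ran from -0.25 to 0.043, SLC2A3 from -2.04 to 0.053 and ALDOA from -0.12 to 0.051, positive without T4A replicate 1. LDHA ran from -0.00704, without T4A replicate 2, to 0.063, and PDK2 from -0.039, without WT replicate 2, to 0.23. The causes were not tested.

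Libraries with the same replicate number shared no deviation over all genes (correlation -0.0038), which cannot tell whether they were prepared as pairs. A replicate block gave 9 rises and 5 falls in glycolysis and 7 and 7 in the other arm, with medians of 0.045 and -0.02, and added PGK1 (0.07, adjusted p = 0.0483). With 2 libraries per group, transcripts under 2 CPM had the widest errors.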
